A study of Mus musculus with 48 samples.

Results

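The interleukin-12 family subunit genes Il12a, Il12b, Il23a, Il27 and Ebi3 were followed in mouse bone marrow-derived macrophages. They were taken by gene symbol from a count table of 49315 genes, and all 5 were among the 13986 genes that passed a filter on low counts. Il12a, Il12b and Il23a passed it through their ligand-treated libraries, because they were at or near 0 without ligand. The macrophages came from mice lacking all Lyn (LynKO), the LynA isoform (LynAKO) or the LynB isoform (LynBKO), and from wild-type mice (WT). Lyn is a Src-family tyrosine kinase of myeloid and B cells. Within each genotype, cells were given lipopolysaccharide of S. Minnesota R595 (LPS, 2 ng/mL), resiquimod (R848, 20 ng/mL) or medium without M-CSF and without ligand (NT) for 2 h. All groups shared 7 days of growth in M-CSF and an overnight rest without it. Each of the 12 groups held 4 libraries of polyA RNA from 4 mice, 2 male and 2 female by label. With the replicate number within a genotype taken as the mouse, the 48 libraries came from 16 mice, whose ages the labels leave out. LPS is a ligand of Toll-like receptor 4 and R848 of Toll-like receptor 7 in the mouse.

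Cytokines of the interleukin-12 family are secreted pairs of an alpha chain, which is folded like interleukin-6, and a beta chain, which resembles a soluble cytokine receptor. The beta chain p40, encoded by Il12b, pairs with p35 (Il12a) to form interleukin-12, which drives interferon-gamma production by T and NK cells, and with p19 (Il23a) to form interleukin-23, which sustains interleukin-17-producing T cells. The other beta chain, encoded by Ebi3, pairs with p28 (Il27) to form interleukin-27, which both promotes and restrains T cell responses, and with p35 in interleukin-35. Macrophages and dendritic cells make these subunits after Toll-like receptor signalling, and the transcripts of partner chains are controlled separately.

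Total counts per library ran between 14974764 and 23321447, and levels are given as TMM-scaled counts relative to that total (CPM). The labels were checked with the targeted gene: Lyn averaged 90.6 ± 7.09 CPM in LynKO, 219.0 ± 25.1 CPM in LynAKO, 217.8 ± 24.6 CPM in LynBKO and 341.2 ± 17 CPM in WT with LPS (SD, n = 4 each), and the order was LynKO below both single knockouts below WT in all 3 treatments. This total cannot tell LynAKO from LynBKO. The macrophage markers Adgre1, Csf1r, Cd68, Mertk, Fcgr1 and Lyz2 were all detected, with summed levels between 19332.7 and 42867.4 CPM, most of which were Lyz2. Of 7 dendritic cell markers, 5 passed the filter, and their list summed to 9.45 to 18.4 CPM with a ligand and to 2.33 to 5.41 CPM without, and the part of that difference in the results was not tested. Of 8 neutrophil and progenitor markers, 4 passed the filter. Their list summed to 7.23 to 26.0 CPM with a ligand and to 3.24 to 15.2 CPM without. Markers of B cells summed to at most 5.02 CPM, of T and NK cells to at most 1.59 CPM and of mast cells and basophils to at most 1.08 CPM. Of the 48 libraries, 46 matched the sex in their labels. The other 2, LynKO NT replicate 4 and LynBKO NT replicate 4, held Xist and Y-linked transcripts together, and results that use them were also computed without them. In bulk samples, fewer cells making a transcript and less of it per cell cannot be told apart.

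The 5 genes lie on 5 chromosomes in build GRCm38. Il12b is at chr11:44400063-44414033 on the plus strand, Il12a at chr3:68690644-68698547 on the plus strand and Il23a at chr10:128296139-128298752 on the minus strand. Ebi3 is at chr17:55952640-55957022 on the plus strand and Il27 at chr7:126589010-126594941 on the minus strand. All are protein-coding genes. Exons of Ebi3 share 270 bases with the antisense gene Gm16712 and exons of Il27 share 103 bases with Apobr. Whether the counting used strand is not known from the labels, and reads in those stretches cannot be assigned with certainty. RefSeq's promoter table held windows for Il12a, Il12b and Ebi3. Those of Il12b and Ebi3 are shown because the 2 beta chain genes were furthest apart without ligand, Il12b near 0 and Ebi3 already expressed. Each is the 250 bases before the start used in that promoter table, 5′ to 3′ on the plus strand of GRCm38.p6. The window is chr11:44399813-44400062 for Il12b and chr17:55952373-55952622 for Ebi3. The Ebi3 window ends short of the gene start given above, so the 2 sources place that start differently.

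Il12b: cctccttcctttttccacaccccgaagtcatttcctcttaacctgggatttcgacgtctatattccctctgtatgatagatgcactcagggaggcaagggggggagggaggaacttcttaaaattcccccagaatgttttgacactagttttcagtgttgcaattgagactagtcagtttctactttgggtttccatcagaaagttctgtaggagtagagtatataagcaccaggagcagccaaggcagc

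Ebi3: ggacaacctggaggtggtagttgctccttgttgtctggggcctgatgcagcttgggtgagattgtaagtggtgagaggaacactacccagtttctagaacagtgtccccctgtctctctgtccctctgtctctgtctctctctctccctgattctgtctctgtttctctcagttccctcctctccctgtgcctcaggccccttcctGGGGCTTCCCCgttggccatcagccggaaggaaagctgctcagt

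Both strands were searched for 5 motifs: an NF-kB-type site (GGGNNNNNCC), an interferon response element (GAAANNGAAA), an AP-1 site (TGANTCA), a C/EBP-type site (TTGCNNAA) and a TATA box (TATAAA). Capitals mark the match in Ebi3, where the NF-kB-type letters occur in 2 overlapping placements. These begin 44 and 43 bases before the start used for the window. The Il12b window held none of the 5 motifs as spelled here. The window before the annotated upstream start of Il12a held none, and that before its second start held the NF-kB-type letters in 2 overlapping placements, 113 and 112 bases before it. The NF-kB-type letters occur in 45.8% of 32841 promoter windows of this length, the interferon response element in 2.98%, AP-1 in 6.75%, C/EBP in 9.57% and TATAAA in 12.4%, so such a match is common.

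The first comparison was of each ligand with untreated cells. All 5 subunit transcripts were higher with LPS and higher with R848 in every genotype, but their starting points differed. Il12a had no count in any of the 16 NT libraries. Il12b had a single count, in WT replicate 3, and Il23a a single count, in LynKO replicate 1. Il27 was low but present without ligand, at 0.456 to 0.804 CPM by group mean, and Ebi3 was at 18.4 to 23.0 CPM. The 3 genes at or near 0 are thus those that make interleukin-12 and interleukin-23, and the 2 with counts in every group make interleukin-27.

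Il12b had the largest ligand-treated level of the 3 genes near 0. It was at 27.2, 14.9, 18.8 and 19.7 CPM with LPS and at 41.0, 46.2, 46.7 and 79.8 CPM with R848 in LynKO, against 0 in the 4 NT libraries. It was at 73.1, 65.5, 38.4 and 19.6 CPM with LPS and at 84.7, 103.9, 74.9 and 90.6 CPM with R848 in LynAKO, and at 47.0, 43.0, 35.0 and 27.6 CPM with LPS and at 94.9, 110.2, 70 and 110.0 CPM with R848 in LynBKO, both against 0 in NT. In WT it was at 76.4, 60.1, 53.9 and 51.4 CPM with LPS and at 88.3, 88.1, 154.0 and 166.7 CPM with R848, against 0, 0, 0.0382 and 0 CPM in NT. No ligand-treated library overlapped an NT library in any genotype. Against a floor of 3 counts over the NT group, Il12b was at least 560.3-fold higher with LPS and at least 1485.9-fold higher with R848 in LynKO. The same bounds were 1593.4-fold and 2871.5-fold in LynAKO and 1171.5-fold and 2954.9-fold in LynBKO. In WT, the 3616 counts with LPS and 7354 with R848 against 1 count gave ratios of 5993.1 (95% counting interval 1075.0 to 236781.1) and 12105.8 (2172.1 to 478218.4).

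The alpha chains that pair with p40 stayed far lower. Il23a, which encodes p19, reached 1.25 ± 0.482 CPM in LynKO, 1.89 ± 0.415 CPM in LynAKO, 1.96 ± 0.663 CPM in LynBKO and 2.45 ± 0.838 CPM in WT with LPS (SD, n = 4 each). With R848 it reached 0.493 ± 0.0876 CPM in LynKO, 0.742 ± 0.231 CPM in LynAKO, 1.23 ± 0.805 CPM in LynBKO and 1.47 ± 0.652 CPM in WT. The bounds over NT were at least 61.2-fold for LPS and at least 24.1-fold for R848 in LynAKO, 60.1-fold and 37.8-fold in LynBKO, and 81.4-fold and 48.9-fold in WT. In LynKO the ratios were 99.2 (17.3 to 3966.3) with LPS and 41.2 (6.89 to 1678.4) with R848. Il12a, which encodes p35, rested on 15 to 64 counts summed over the 4 libraries of a ligand group. It averaged 0.397 CPM in LynKO, 0.759 in LynAKO, 0.957 in LynBKO and 1.06 in WT with LPS, and 0.234, 0.449, 0.400 and 0.509 CPM in the same genotypes with R848. One LynKO library with LPS had no Il12a count, so this was the only subunit whose LPS and NT libraries overlapped in LynKO. Il12a was at least 11-fold (LynKO) to 35.1-fold (WT) higher with LPS, and at least 6.52-fold (LynKO) to 16.9-fold (WT) higher with R848, than the NT floor.

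The interleukin-27 pair had measurable levels in NT, so its fold changes are fitted values. Il27 rose by a log2 fold change of 7.36 ± 0.36 in LynKO, 6.96 ± 0.21 in LynAKO, 7.47 ± 0.25 in LynBKO and 7.21 ± 0.23 in WT with LPS (SE). With R848 it rose by 5.93 ± 0.37, 5.30 ± 0.21, 5.81 ± 0.26 and 5.68 ± 0.23 on the log2 scale in the same genotypes. Ebi3 rose less, by 2.00 ± 0.10, 2.07 ± 0.13, 2.04 ± 0.13 and 2.07 ± 0.16 with LPS and by 1.65 ± 0.10, 1.66 ± 0.13, 1.63 ± 0.13 and 1.66 ± 0.16 with R848. In linear terms Ebi3 was 3.99- to 4.2-fold higher with LPS and 3.09- to 3.16-fold higher with R848. In edgeR's quasi-likelihood test with Benjamini-Hochberg adjustment, Il27 and Ebi3 passed in all 8 comparisons. So did Il12a, Il12b and Il23a, which entered the tested set through the libraries in which they are high and so had to differ from NT, and nothing is read from their passes. For Il27 and Ebi3 the largest edgeR adjusted p was 6.51e-08, for Ebi3 with R848 in WT. Of all genes tested, the share higher at an adjusted p under 0.05 was 31% with LPS and 28.4% with R848 in LynKO, 30.4% and 29% in LynAKO, 33.9% and 31.3% in LynBKO, and 31.5% and 30% in WT.

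**Figure D1:**
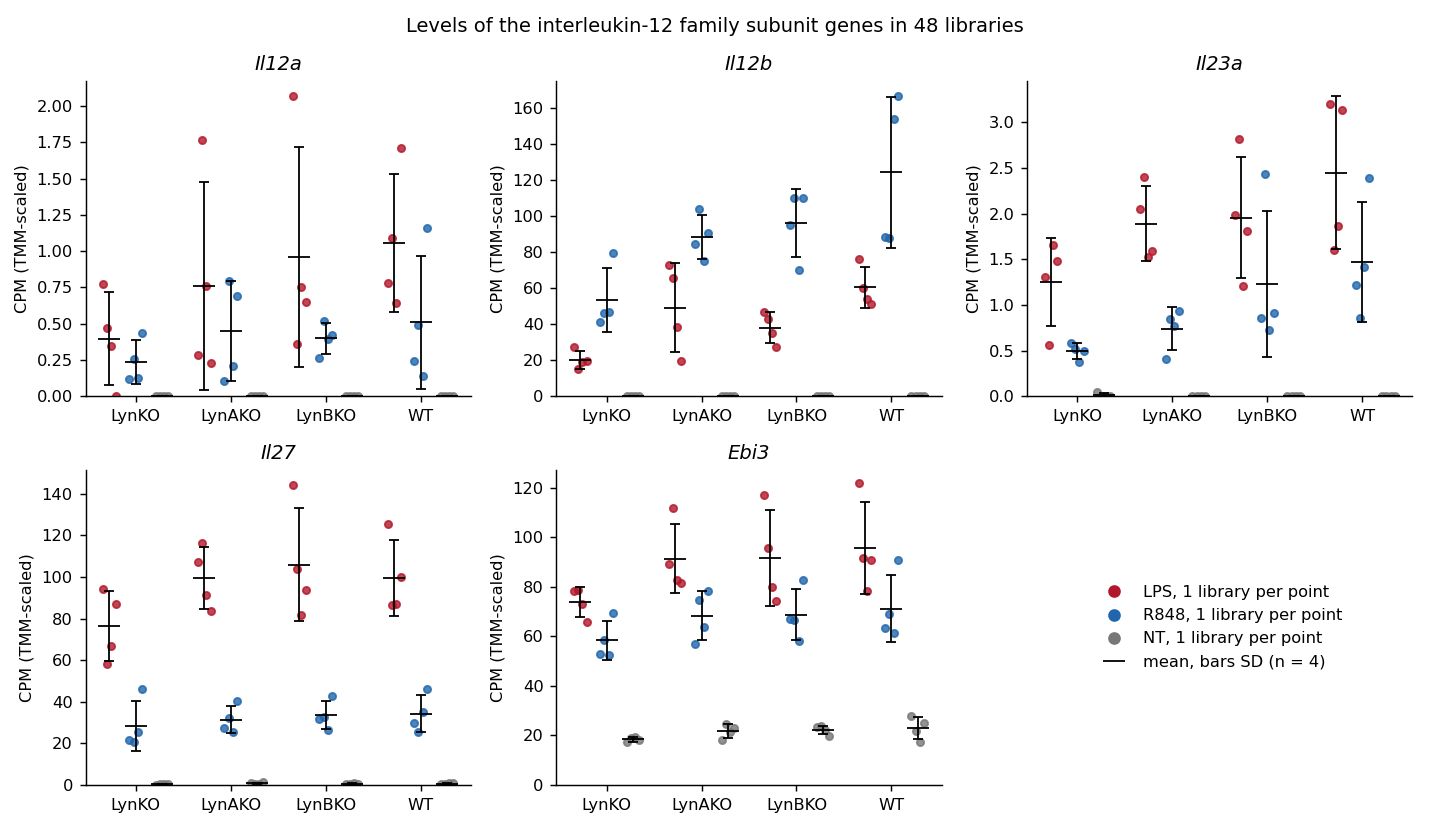
CPM of each subunit gene in the 48 libraries (y axis, a separate scale per gene) by genotype and treatment; points are libraries and bars the mean and SD of 4. Il12a, Il12b and Il23a lie at or near 0 in NT, Il12b is higher with R848 than with LPS by group mean in each genotype, and Il27 and Ebi3 are higher with LPS.

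To set the subunits side by side, levels were divided by summed exon length. With LPS the order was Il27, Ebi3, Il12b, Il23a and Il12a in all 4 genotypes. In WT with LPS, Il27 averaged 97.6 ± 17.9 CPM per kb and Ebi3 82.9 ± 16.1 CPM per kb (SD, n = 4), whose libraries overlapped, and Il12b averaged 30.7 ± 5.72 CPM per kb, below both. Il23a averaged 1.09 ± 0.373 CPM per kb and Il12a 0.621 ± 0.279 CPM per kb, and these 2 also overlapped. With R848 the top of the order by group mean depended on genotype. In LynKO the order was Ebi3 at 50.5 ± 6.89, Il27 at 27.9 ± 11.8 and Il12b at 27.2 ± 9.02 CPM per kb, the last 2 overlapping. In LynAKO and LynBKO it was Ebi3 at 59.3 and 59.5, Il12b at 45.0 and 48.9, and Il27 at 30.7 and 32.7 CPM per kb. In both, the libraries of Ebi3 and Il12b overlapped, as did those of Il12b and Il27. In WT it was Il12b at 63.2 ± 21.3, Ebi3 at 61.7 ± 11.8 and Il27 at 33.4 ± 8.74 CPM per kb, and the first 2 overlapped. By coding length in place of exon length, Il12b stood above Il27 in LynKO with R848, and the other ligand groups kept their order. By these transcripts the chains of interleukin-12 and interleukin-23 were thus very unequal. Those of interleukin-27 were close with LPS, and with R848 Ebi3 lay above Il27 by group mean in each genotype, with libraries that did not overlap.

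**Figure D2:**
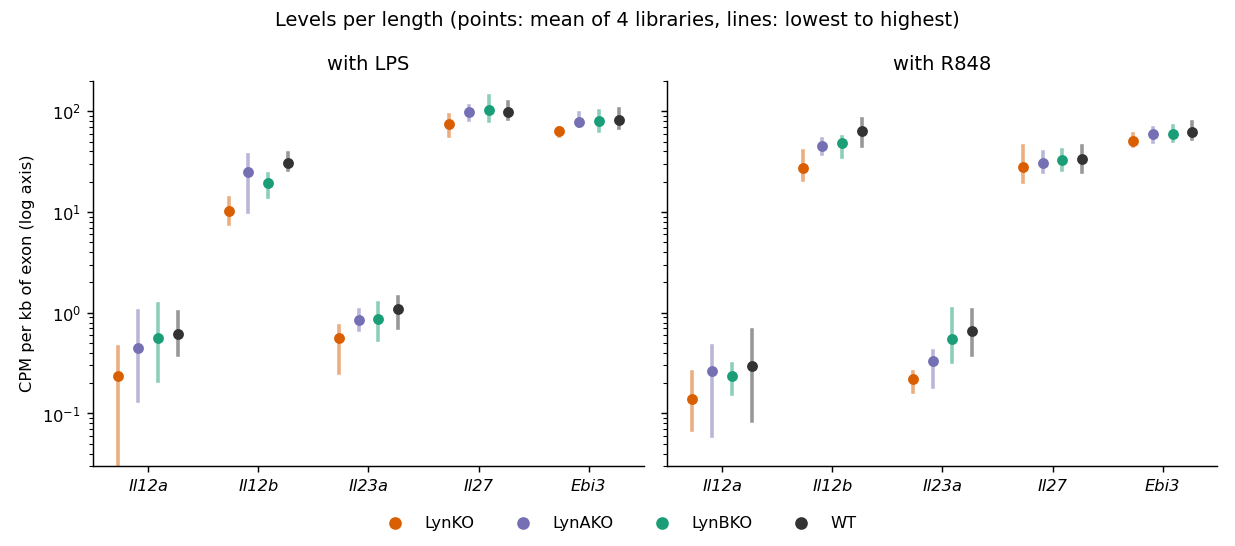
Mean CPM per kb of summed exon length (log axis) of each subunit in each genotype, with LPS on the left and R848 on the right; lines span the lowest to the highest of 4 libraries. The line of Il12a in LynKO with LPS runs to the axis because 1 library was at 0; Il12b lies above Il23a and Il12a in every ligand group, and below Il27 in all 4 genotypes with LPS.

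The 2 ligands were then compared directly within each genotype, and the subunits did not go the same way. Il12b was lower with LPS than with R848, while Il27 and Ebi3 were higher with LPS. Il23a passed as higher with LPS in LynKO and LynAKO, and Il12a did not pass in any genotype. The log2 fold change of Il12b, LPS over R848, was -1.40 ± 0.22 in LynKO (adjusted p = 0.000565), -1.33 ± 0.16 in LynBKO (adjusted p = 2.21e-05) and -1.05 ± 0.18 in WT (adjusted p = 0.000432; SE, edgeR). In these 3 genotypes all 4 LPS libraries lay below all 4 R848 libraries. In LynAKO the LPS libraries, at 19.6 to 73.1 CPM, also lay below the R848 libraries, at 74.9 to 103.9 CPM, with a log2 fold change of -0.86 ± 0.29 that did not pass (adjusted p = 0.0548). With the mouse as a replicate block, the LynAKO value was -0.97 and passed (adjusted p = 0.00162).

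Il27 was the subunit with the clearest excess with LPS. It was at 94.2, 58.4, 66.8 and 87.1 CPM with LPS, against 21.8, 20.5, 25.4 and 46.3 CPM with R848 in LynKO. In LynAKO it was at 107.3, 116.4, 91.2 and 83.8 CPM with LPS, against 27.5, 32.4, 25.4 and 40.2 CPM with R848. In LynBKO it was at 144.4, 103.9, 81.6 and 93.7 CPM with LPS, against 31.9, 32.7, 26.4 and 42.6 CPM with R848, and in WT at 125.3, 86.4, 86.9 and 100.2 CPM with LPS, against 29.8, 25.5, 35.2 and 46.1 CPM with R848. The ligand groups did not overlap in any genotype. The log2 fold change was 1.43 ± 0.23 in LynKO, 1.66 ± 0.15 in LynAKO, 1.66 ± 0.16 in LynBKO and 1.53 ± 0.16 in WT, with edgeR adjusted p of 0.000324 or less, or 2.70- to 3.17-fold.

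Ebi3 differed by less. It averaged 73.9 ± 5.96 CPM with LPS and 58.3 ± 7.95 CPM with R848 in LynKO, 91.3 ± 14.0 and 68.4 ± 9.83 CPM in LynAKO, 91.7 ± 19.2 and 68.6 ± 10.3 CPM in LynBKO, and 95.7 ± 18.5 and 71.2 ± 13.6 CPM in WT (SD, n = 4 each). Its log2 fold change was 0.35 to 0.42, and it passed in LynKO (adjusted p = 0.0185), LynAKO (adjusted p = 0.0329) and LynBKO (adjusted p = 0.0193) and not in WT (adjusted p = 0.0638; edgeR). With the replicate block it also passed in WT, at 0.41 (edgeR adjusted p = 0.00986). The blocked values were 0.35 in LynKO (adjusted p = 0.00691), 0.41 in LynAKO (adjusted p = 0.000909) and 0.40 in LynBKO (adjusted p = 0.0187). Replicate numbers were left out in turn only in the model without the block. There, in each knockout, leaving out any of 3 of the 4 numbers ended the pass. These were replicates 1, 2 and 3 in each, with log2 fold changes of 0.28, 0.32 and 0.31 in LynKO, 0.34, 0.35 and 0.42 in LynAKO, and 0.27, 0.38 and 0.39 in LynBKO. In LynBKO the sex labels of NT replicates 2 and 3 are exchanged against those with a ligand. The number therefore need not mark the same mouse in NT there, either in the block or when left out.

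Il23a was at 1.31, 0.561, 1.66 and 1.48 CPM with LPS, against 0.579, 0.521, 0.371 and 0.500 CPM with R848 in LynKO. In LynAKO it was at 2.05, 2.40, 1.52 and 1.59 CPM with LPS, against 0.411, 0.851, 0.767 and 0.938 CPM with R848, with no overlap. The log2 fold change passed narrowly in both, at 1.32 ± 0.43 in LynKO (adjusted p = 0.0486) and 1.34 ± 0.38 in LynAKO (adjusted p = 0.0248; edgeR). With the replicate block the values were 1.28 in LynKO (edgeR adjusted p = 0.0489) and 1.35 in LynAKO (adjusted p = 0.0216). Without the block, leaving out 1 mouse ended the pass for 3 of 4 mice in each. These were replicates 1 (1.38), 3 (1.05) and 4 (1.23) in LynKO, and 1 (1.09), 2 (1.29) and 3 (1.45) in LynAKO. The log2 fold change of Il23a was 0.65 ± 0.41 in LynBKO (edgeR adjusted p = 0.278) and 0.72 ± 0.39 in WT (adjusted p = 0.227). Without LynKO NT replicate 4, which enters the shared estimate of spread, the LynKO value was again 1.32 and did not pass (adjusted p = 0.0547).

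Il12a had log2 fold changes of 0.79 ± 0.77 in LynKO, 0.75 ± 0.73 in LynAKO, 1.19 ± 0.55 in LynBKO and 1.05 ± 0.61 in WT, LPS over R848. None passed (edgeR adjusted p 0.134 to 0.577), and the 95% intervals were wide, at -0.89 to 2.46 in LynKO, -0.82 to 2.31 in LynAKO, 0.01 to 2.38 in LynBKO (unadjusted p = 0.0489) and -0.25 to 2.35 in WT. Of the 5 subunits, 3 were higher and 1 lower with LPS in LynKO, 3 and 0 in LynAKO, 2 and 1 in LynBKO, and 1 and 1 in WT. Over all genes tested the shares higher and lower were 9.73% and 6.13% in LynKO, 9.7% and 7.92% in LynAKO, 14.2% and 12.3% in LynBKO, and 10.9% and 10% in WT.

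**Figure D3:**
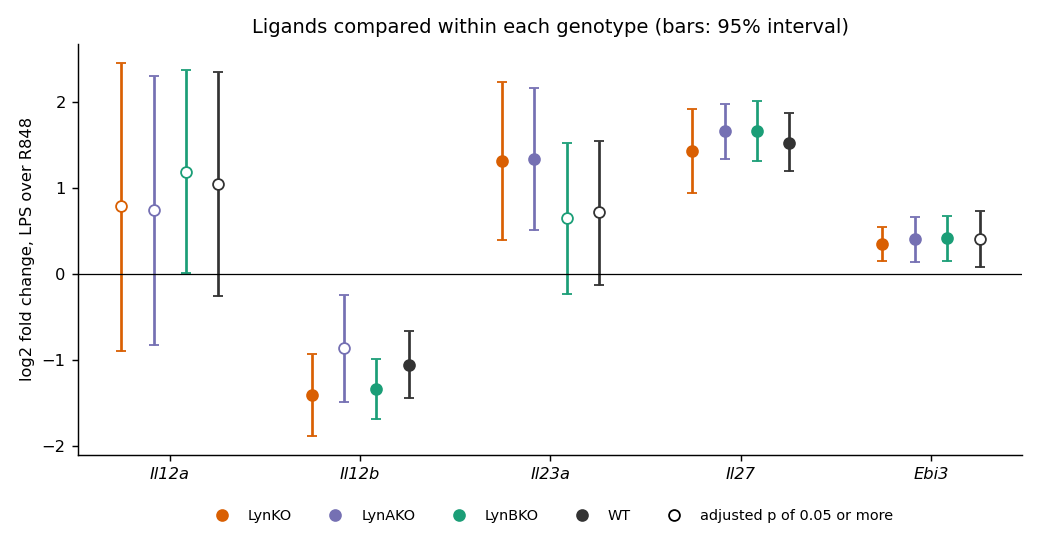
Log2 fold change of LPS over R848 for each subunit in each genotype, with 95% intervals; filled points passed at an adjusted p under 0.05. Il12b lies below 0 and Il27 above 0 in all 4 genotypes, with WT values of -1.05 and 1.53, and the intervals of the genotypes overlap for each gene.

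Because partner chains are secreted together, their ratio was taken in each library, as log2 of CPM with 0.1 CPM added to each chain. The ratio of Il12b to Il23a was lower with LPS than with R848. The difference was -2.5 in LynKO, -2.28 in LynAKO, -2.07 in LynBKO and -1.72 in WT, and no LPS library overlapped an R848 library. In WT the ratio was 4.53, 5.14, 4.79 and 3.99 with LPS, against 6.06, 6.52, 6.67 and 6.07 with R848. In summed counts this was 25.5 Il12b counts for each Il23a count with LPS, against 84.5 with R848. The ratio of Ebi3 to Il27 was also lower with LPS, with differences of -1.13 in LynKO, -1.26 in LynAKO, -1.24 in LynBKO and -1.14 in WT. In WT it was -0.04, 0.09, -0.15 and -0.14 with LPS, against 1.09, 1.44, 0.80 and 0.98 with R848. The 2 chains of interleukin-27 were thus near equal in counts with LPS, at 0.875 to 0.985 Ebi3 counts per Il27 count over the 4 genotypes, and at 2.05 to 2.17 with R848.

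The ratio of Il12b to Il12a was lower with LPS, with differences of -1.69 in LynKO, -1.56 in LynAKO, -2.20 in LynBKO and -2.12 in WT, and the groups overlapped in LynKO and LynAKO. Leaving out any single replicate left differences of -2.63 to -1.26 over the 4 genotypes. It rests on few Il12a counts, 15 to 64 per group. With 1 CPM added in place of 0.1 CPM, the differences were -1.5 in LynKO, -1.22 in LynAKO, -1.73 in LynBKO and -1.44 in WT for Il12b to Il12a, and -1.91, -1.72, -1.76 and -1.46 in the same genotypes for Il12b to Il23a, so their size depends on this choice. With 4 libraries in each ligand group, the two-sided exact permutation test cannot give a p below 0.0286, and this smallest p was reached by all 4 genotypes for Il12b to Il23a and for Ebi3 to Il27, and by LynBKO and WT for Il12b to Il12a. After Benjamini-Hochberg adjustment over the 40 ratio tests these were 0.114, so none passed in this design. Between ligands the test took libraries as independent, although those with the same replicate number were taken to come from the same mouse. When paired by replicate number, the ratios did not pass either. The ratio of Il12a to Il23a, the 2 alpha chains that compete for p40, differed by -0.80 to 0.40 between ligands with overlapping libraries (exact permutation p of 0.314 or more, adjusted 0.662 to 0.932).

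**Figure D4:**
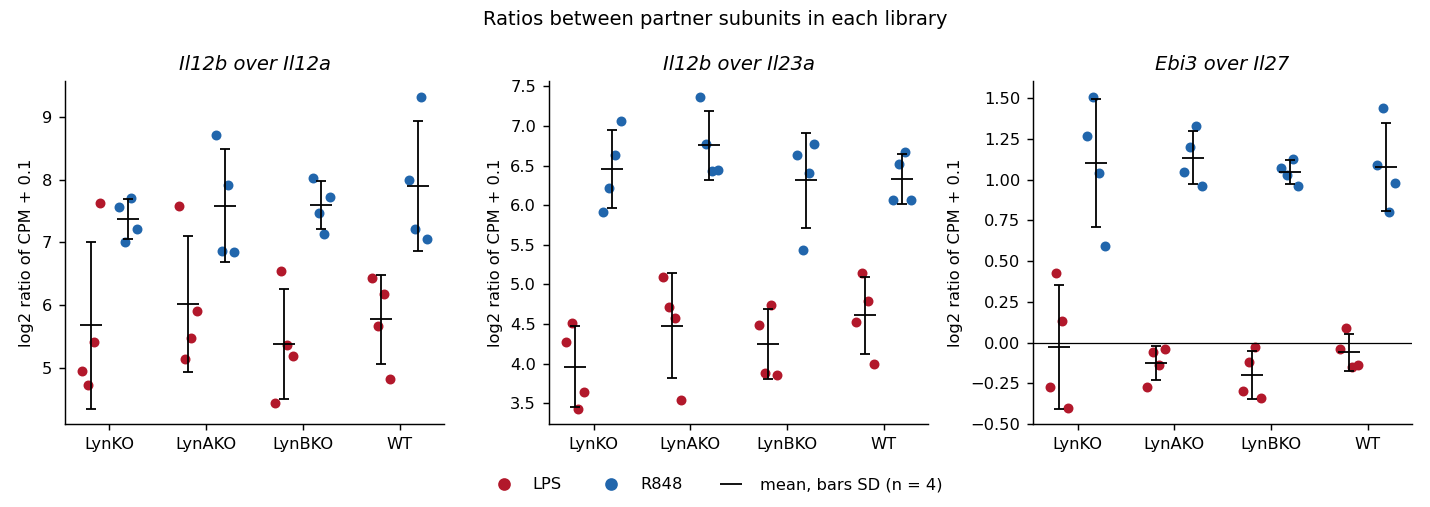
Log2 ratio of partner subunits (CPM + 0.1) in each library with LPS or R848, by genotype; bars are the mean and SD of 4 libraries. Il12b over Il23a and Ebi3 over Il27 lie lower with LPS than with R848 without overlap in each genotype, and Il12b over Il12a overlaps in LynKO and LynAKO.

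The next comparison was of each knockout with WT under the same ligand, which asks how Lyn and its isoforms bear on these transcripts. Il12b was the subunit that fell with both ligands in LynKO. With LPS it was at 27.2, 14.9, 18.8 and 19.7 CPM in LynKO, against 76.4, 60.1, 53.9 and 51.4 CPM in WT, a log2 fold change of -1.57 ± 0.28 or 2.96-fold lower (edgeR adjusted p = 0.00158). With R848 it was at 41.0, 46.2, 46.7 and 79.8 CPM in LynKO, against 88.3, 88.1, 154.0 and 166.7 CPM in WT, a log2 fold change of -1.22 ± 0.22 or 2.32-fold lower (edgeR adjusted p = 0.00359). The groups did not overlap with either ligand. Leaving out any single library of the 2 groups left log2 fold changes of -1.74 to -1.44 with LPS and -1.47 to -1.04 with R848, all of which passed. With R848, LynKO replicate 4 stood well above the other 3 and moved the estimate toward WT: the value furthest from 0 was the one without it.

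Il23a fell in LynKO with R848, from few counts. It was at 0.579, 0.521, 0.371 and 0.500 CPM in LynKO, against 1.22, 0.860, 1.42 and 2.39 CPM in WT, with no overlap and a log2 fold change of -1.55 ± 0.44 (edgeR adjusted p = 0.0437). The pass did not survive the removal of any of 7 of the 8 libraries. The values were -1.64, -1.58, -1.44 and -1.55 without LynKO replicates 1 to 4 in turn, and -1.63, -1.57 and -1.22 without WT replicates 1, 3 and 4. With LPS Il23a was at 1.31, 0.561, 1.66 and 1.48 CPM in LynKO, against 3.20, 1.60, 1.86 and 3.14 CPM in WT, which overlapped, and its log2 fold change of -0.96 ± 0.34 did not pass (edgeR adjusted p = 0.0839).

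For the other subunits no LynKO value passed in the model without further terms. Il12a had log2 fold changes of -1.35 ± 0.68 with LPS (interval -2.78 to 0.07) and -1.09 ± 0.69 with R848 (interval -2.54 to 0.36). Il27 had -0.36 ± 0.17 with LPS (edgeR adjusted p = 0.19) and -0.26 ± 0.23 with R848 (adjusted p = 0.576). Ebi3 had -0.35 ± 0.13 with LPS (adjusted p = 0.113), -0.29 ± 0.14 with R848 (adjusted p = 0.242) and -0.31 ± 0.12 without ligand (adjusted p = 0.123), so that its size in LynKO relative to WT was much the same in the 3 treatments. With the replicate block Ebi3 passed as lower in LynKO with both ligands, at -0.34 with LPS (adjusted p = 0.0274) and -0.28 with R848 (adjusted p = 0.015), and with labelled sex as a covariate it passed with LPS, at -0.34 (edgeR adjusted p = 0.028). Thus 1 of 5 subunits was lower with LPS, where 4.06% of all genes tested were lower, and 2 of 5 with R848, where 2.74% were. The LynKO-over-WT estimates of all 5 subunits were below 0 with each ligand, most of them without passing. The median over all genes tested was 0.02 with LPS and 0.01 with R848. These estimates are not independent of each other.

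No subunit passed in LynAKO or LynBKO over WT with either ligand, where at most 5 of 13986 genes passed at all (0.0215% and 0.0358% with LPS, 0.00715% and 0% with R848). The intervals bound what could have been missed. For Il12b with LPS they ran from -0.85 to 0.26 in LynAKO and from -1.22 to -0.10 in LynBKO, and with R848 from -0.94 to -0.03 in LynAKO and from -0.82 to 0.09 in LynBKO. The LynBKO libraries with LPS, at 27.6 to 47.0 CPM, lay below the WT libraries, at 51.4 to 76.4 CPM (log2 fold change -0.66 ± 0.27, unadjusted p = 0.0225, edgeR adjusted p = 0.856). For Il27 and Ebi3 the single-knockout estimates lay between -0.12 and 0.09 with either ligand, and every interval included 0. Il23a with R848 was at -0.98 ± 0.42 in LynAKO and -0.23 ± 0.40 in LynBKO, neither of which passed. Il12a was at -0.47 in LynAKO and -0.19 in LynBKO with LPS, and at -0.16 and -0.32 with R848. Leaving out 1 library gave -1.29 to -0.15 for Il12a in LynAKO with LPS and -0.85 to 0.13 in LynBKO. Both genes rest on few counts, so changes in them could have been missed.

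Each single knockout was also set against LynKO and against the other. Il12b with LPS was higher in LynAKO than in LynKO by 1.27 ± 0.28 (edgeR adjusted p = 0.03), although LynAKO replicate 4, at 19.6 CPM, fell among the LynKO libraries. Of all genes tested, 0.522% were higher in that comparison. The pass was lost without LynKO replicate 2 (1.15), 3 (1.25) or 4 (1.27) and without LynAKO replicate 1 (1.01) or 2 (1.11). LynBKO over LynKO gave 0.91 ± 0.28 with LPS (adjusted p = 0.135) and 0.85 ± 0.22 with R848 (adjusted p = 0.0552), and LynAKO over LynKO 0.73 ± 0.22 with R848 (adjusted p = 0.129). With the replicate block these 3 values passed, at 0.89 (adjusted p = 0.0281), 0.88 (adjusted p = 0.01) and 0.77 (adjusted p = 0.0234), and with labelled sex as a covariate LynBKO over LynKO passed with both ligands, at 0.88 each (edgeR adjusted p = 0.0412 with LPS and 0.0342 with R848). Between LynAKO and LynBKO, Il12b differed by 0.37 ± 0.27 with LPS (interval -0.19 to 0.93) and by -0.12 ± 0.22 with R848 (interval -0.58 to 0.34). None of the 13986 genes passed between the 2 isoform knockouts with LPS or R848 in edgeR, with 353 and 445 genes at an unadjusted p under 0.05.

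**Figure D5:**
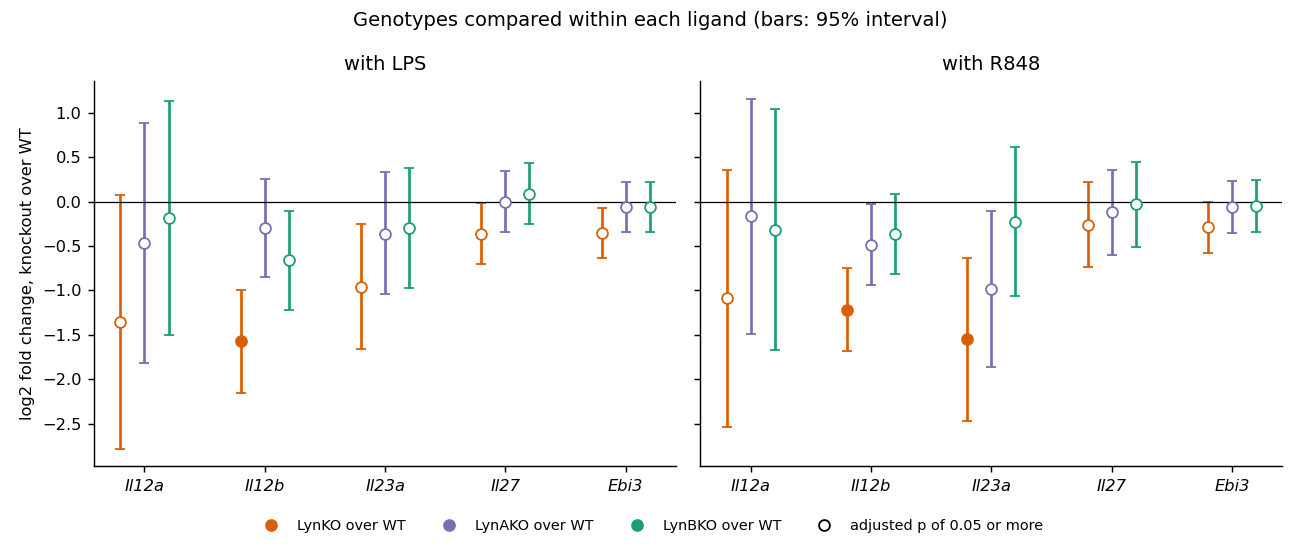
Log2 fold change of each knockout over WT for each subunit, with LPS on the left and R848 on the right, with 95% intervals; filled points passed at an adjusted p under 0.05. The filled points are Il12b in LynKO with both ligands (-1.57 and -1.22) and Il23a in LynKO with R848 (-1.55).

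Of the macrophage markers, the summed level differed between LynKO and WT, and the single genes that passed were all lower in LynKO. Most of that sum was Lyz2, whose highest group mean was 30518.3 CPM, against 4582.9 CPM for Csf1r, the next highest. The sum was 20483.6 to 23960.8 CPM in LynKO and 31025.8 to 36972.0 CPM in WT with LPS, and 19332.7 to 24763.5 CPM in LynKO and 32221.3 to 35194.4 CPM in WT with R848. Of its 6 genes, Lyz2 and Csf1r were lower in LynKO with LPS (log2 fold changes -0.72 and -0.22) and none was higher, while Adgre1 and Cd68 were at 0.13 and -0.02 (median of the 6 genes -0.12). Of all genes tested, 4.06% were lower with LPS. With R848 Lyz2 alone was lower (-0.74, median -0.15), where 2.74% of all genes were lower. Without ligand 3 of the 6 were lower and 0 higher (median -0.12), where 625 of 13986 genes were lower and 760 higher. The dendritic cell list summed to 10.5 to 13.8 CPM in LynKO and 12.2 to 14.3 CPM in WT with LPS, and to 11.2 to 14.8 CPM in LynKO and 10.1 to 17 CPM in WT with R848. The neutrophil and progenitor list summed to 7.23 to 11.9 CPM in LynKO and 11.6 to 18 CPM in WT with LPS, and to 7.69 to 11.7 CPM in LynKO and 9.67 to 25.3 CPM in WT with R848. In LynBKO it summed to 18.7 to 21.9 CPM with LPS and to 18.8 to 26.0 CPM with R848. Of its 4 tested genes, 1 was higher in LynBKO than in LynKO with LPS and 2 with R848. Of all 13986 genes, 46 and 122 were higher in these comparisons. The part of these marker differences in the Il12b result was not tested.

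Whether the ligands differed by a different amount in the knockouts was tested with interaction terms over all 48 libraries. For LPS over R848, the knockout-minus-WT difference of Il12b was -0.37 ± 0.37 in LynKO (interval -1.13 to 0.39), 0.19 ± 0.37 in LynAKO (interval -0.56 to 0.93) and -0.30 ± 0.37 in LynBKO (interval -1.04 to 0.45). For Il27 it was -0.12 ± 0.29, 0.12 ± 0.29 and 0.12 ± 0.29, and for Ebi3 -0.08 ± 0.20, -0.01 ± 0.20 and -0.01 ± 0.20, in the same genotypes. No subunit passed in any of the 3, nor did any of the 13986 genes (0% in edgeR; 447, 331 and 380 genes at an unadjusted p under 0.05). So the narrow passes of Il23a in LynKO and LynAKO are not shown to differ from WT, with differences of 0.58 ± 0.58 and 0.62 ± 0.56. The response to each ligand over NT could be compared between genotypes for Il27 and Ebi3. LynKO minus WT was 0.17 ± 0.54 for LPS and 0.29 ± 0.55 for R848 in Il27, and -0.05 ± 0.21 and 0.03 ± 0.21 in Ebi3, none of which passed (0.1% and 0.193% of genes did). For Il12a, Il12b and Il23a, NT counts at or near 0 leave that comparison without meaning.

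Other genes of the pathway were read from 3 lists. Of 11 receptor and signalling genes, 9 were tested, and Il12rb1 and Il23r, receptor chains for interleukin-12 and interleukin-23, had only 186 and 17 counts over the 48 libraries. In WT with LPS 5 of the 9 were higher and 0 lower, with a median log2 fold change of 0.91 against -0.03 over all genes tested, of which 31.5% were higher and 30% lower. Among them were Jak2 at 4.47 ± 0.13 and Tyk2 at 1.06 ± 0.08, the kinases bound to these receptors, Jak1 at 0.91 ± 0.09, and the transcription factor Stat3 at 1.25 ± 0.09. Stat4, which carries the interleukin-12 signal, had -0.03 ± 0.22. With R848 in WT, 5 were higher and 0 lower (median 0.56), where 30% of all genes were higher and 26.7% lower, led by Jak2 at 3.79 ± 0.13 and Tyk2 at 1.11 ± 0.08. Comparing the ligands in WT, 4 were higher and 0 lower with LPS (median 0.18), where 10.9% of all genes were higher and 10% lower. In LynKO over WT, 0 of 9 passed with either ligand, with medians of 0.04 with LPS and 0.00 with R848.

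Of 18 regulators linked to these genes in macrophages, all were tested, and 15 were higher and 2 lower in WT with LPS over NT (median 1.59), against 31.5% and 30% of all genes. The largest were Il10, an anti-inflammatory cytokine that restrains Il12b, at 7.26 ± 0.31, the NF-kB cofactor Nfkbiz at 4.56 ± 0.14, the AP-1 factor Batf at 4.15 ± 0.17 and the interferon-regulated factor Irf1 at 3.75 ± 0.11. Irf8, which acts at the Il12b promoter with Irf1, and Maf were lower, at -0.61 ± 0.12 and -0.41 ± 0.09. With R848, 13 were higher and 1 lower (median 0.89), Irf8 being the one, at -1.54 ± 0.13, against 30% and 26.7% of all genes. Between ligands in WT, 10 were higher with LPS and 2 lower (median 0.44), against 10.9% and 10% of all genes. Higher were the interferon regulator Irf7 at 2.53 ± 0.24, Irf1 at 2.16 ± 0.11, Batf at 1.28 ± 0.14 and Nfil3 at 1.18 ± 0.13. The 2 lower were Nfkbiz at -0.94 ± 0.12, with means of 823.9 CPM with LPS and 1559.4 CPM with R848, and Maf at -0.45 ± 0.09. By sign, Nfkbiz and Maf thus went the way of Il12b between the ligands in WT, and the 10 higher regulators the way of Il27. Whether any of them bears on either subunit was not tested.

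In LynKO over WT, 0 regulators were higher and 2 lower with LPS (median -0.26 against 0.02 over all genes), Irf1 at -0.42 ± 0.07 and the NF-kB subunit Rela at -0.31 ± 0.08. Of all genes 4.43% were higher and 4.06% lower in that comparison. With R848, 0 were higher and 2 lower (median -0.12), the NF-kB subunit Rel, which is needed for Il12b transcription in macrophages, at -0.48 ± 0.13 and Irf1 at -0.37 ± 0.10, where 3.19% of all genes were higher and 2.74% lower. Il10 did not pass, at 0.31 ± 0.17 with LPS and 0.73 ± 0.23 with R848. Of 6 related chains and cytokines, Il6, Clcf1 and Lif were tested, and all 3 were higher with each ligand in WT. Il6, the cytokine whose fold the alpha chains share, was at 72.5 CPM with LPS and 25.8 CPM with R848 in WT, higher with LPS by 1.48 ± 0.23 and so opposite to Il12b. In LynKO over WT Il6 did not pass, at -0.72 ± 0.24 with LPS (edgeR adjusted p = 0.062) and -0.94 ± 0.34 with R848 (adjusted p = 0.107).

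The genes whose profile over the 12 group means was most like that of each subunit were ranked by the root mean square difference of centred log2 CPM. For Il12b they were the neutrophil-attracting chemokines Cxcl1 (0.45), Cxcl2 (0.61) and Cxcl3 (0.625). For Il27 they were Il1rn (0.204), the interleukin-1 receptor antagonist, and Dusp2 (0.262), a phosphatase of MAP kinases. For Ebi3 they were Snx10 (0.068), Clcn5 (0.078) and Stx6 (0.08). For Il23a they were Nupr1 (0.26), 2500002B13Rik (0.275) and Pdgfrb (0.277), and for Il12a Htra4 (0.186), Pvr (0.267) and Cdkn1a (0.268), where low counts and the added prior count flatten the profiles. The measure describes how far apart the centred group means lie over 12 points, which share libraries and depth, and carries no test. For Il12b, with 0 or 1 count in each NT group, the prior count sets the NT level of the profile.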

How the data were processed

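PolyA RNA of 48 libraries was analysed. The raw counts per Ensembl gene that the authors deposited were used for all tests, and their deposited variance-stabilised values, on a log2 scale and for fewer genes, were not used. The submitters' processing notes list Subread 1.5.2 (featureCounts), STAR 2.5.2b, Trimmomatic 0.36, DESeq2 and the genome build GRCm38, and neither the annotation release nor a strand setting was found in the labels. Symbols came from GENCODE M21 (48970 of 49315 identifiers matched).

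The low-count filter was edgeR's filterByExpr with the 12 groups as design, at a minimum count of 10 and a minimum total of 15. The quasi-likelihood test (edgeR 4.0.16, R 4.3.3) was run on TMM-scaled counts, with Benjamini-Hochberg adjustment over the 13986 genes of each comparison and a threshold of 0.05. Models held the 12 libraries of 1 genotype for ligands, the 16 libraries of 1 treatment for genotypes, and all 48 for interaction terms. Errors are the SE for fitted log2 fold changes and the SD of 4 libraries for CPM. CPM are TMM-scaled, and the floor is 3 counts over a group. Such floors and intervals hold no error beyond that of counting. Partner ratios used a pseudocount of 0.1 CPM. Likeness used a prior count of 2.

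The replicate number was taken to mark the mouse in ligand comparisons. Same-numbered libraries deviated together in all pairs of LynKO, LynAKO and WT and in LynBKO between LPS and R848 (r 0.113 to 0.420, across genes), but not between LynBKO NT and its ligands (r -0.210 to 0.186), where the sex labels of NT replicates 2 and 3 are exchanged. Between genotypes the number names different mice of the same labelled sex. There every same-numbered pair of LynKO and WT correlated above 0.1 with each ligand (r 0.107 to 0.313), as did LynKO with LynAKO and LynBKO with R848 (r 0.105 to 0.403), while with LPS the lowest of these was 0.061, and the blocked value stands beside the calls it changes. No 2 libraries of a group agreed within sampling noise. Alternatives were DESeq2 1.42.0, RLE size factors, no filter, the replicate block, labelled sex as a covariate, all 48 libraries in 1 model, and each replicate left out.

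The subunit genes, the gene lists, the tests and most alternatives were chosen with earlier results of these data known. The rule for named genes took the 5 subunits, Lyn, up to 4 members each way of the 3 pathway lists with the largest change past the threshold, and the 3 genes most like each subunit. Of these, 2 genes are not reported here. Stat4, Il10 in LynKO, Il6 in LynKO and the marker genes are named beside it. The B cell, T and NK cell, and mast cell marker lists each had 1 gene that passed the filter.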

Additional observations from a re-analysis of the deposited data

Results flagged for a closer look

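In a group of 4 libraries, 3 values stood apart from the others by Dixon's criterion, of 46 groups with enough counts to test. Chance alone flags about 1 in 20 groups. Il12b was at 79.8 CPM in LynKO with R848 replicate 4, where the other 3 were at 41.0 to 46.7 CPM. Il23a was at 2.43 CPM in LynBKO with R848 replicate 2, where the other 3 were at 0.726 to 0.908 CPM. Il27 was at 1.21 CPM in LynAKO NT replicate 4, where the other 3 were at 0.636 to 0.716 CPM.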

How the results depend on the processing

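No value past the threshold changed sign under any alternative. Without a filter on low counts, edgeR gave far smaller p at unchanged fold changes, and the cause was not tested. In that setting Il12b in LynAKO, LPS over R848 (-0.86), Ebi3 in WT, LPS over R848 (0.43), and Il27 (-0.36) and Ebi3 (-0.35) in LynKO over WT with LPS passed, and Il23a in LynKO, LPS over R848 (1.32), was lost. It also added Il12b in LynBKO over WT with LPS (-0.66), LynAKO over WT with R848 (-0.49), LynBKO over LynKO with LPS (0.91) and R848 (0.85) and LynAKO over LynKO with R848 (0.73), and Il27 with LPS over LynKO in LynAKO (0.36) and LynBKO (0.45). For male over female it added Il27 (0.25), Il12b (0.57) and Ebi3 (0.31) with LPS, Il27 (-0.38) and Il12b (-0.25) with R848, and Il27 (0.62), Il12b (0.81) and Ebi3 (0.43) for the difference. DESeq2 added Ebi3 in WT, LPS over R848 (0.43), Il23a in LynKO over WT with LPS (-0.97), and Il12b in LynBKO over LynKO with R848 (0.86). All 48 libraries in 1 model added Il12b in LynAKO (-0.85) and Ebi3 in WT (0.43) and lost Ebi3 in LynKO (0.34), LPS over R848. The replicate block, which stands for the mouse there, added Il12b in LynAKO (-0.97) and Ebi3 in WT (0.41), LPS over R848. Between genotypes it pairs different mice that share a number and sex label. There it added Ebi3 in LynKO over WT with LPS (-0.34) and R848 (-0.28), and Il12b over LynKO in LynBKO with LPS (0.89) and R848 (0.88) and in LynAKO with R848 (0.77). Sex as a covariate added Ebi3 in LynKO over WT with LPS (-0.34) and Il12b in LynBKO over LynKO with LPS and R848 (0.88 each). Without the 2 NT libraries that hold transcripts of both sexes, Il23a in LynKO, LPS over R848, was lost (1.32). Causes were not tested.

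Leaving out 1 replicate changed these calls, given with their log2 ranges. LPS over R848 gave 0.28 to 0.50 in LynKO, 0.34 to 0.54 in LynAKO, 0.27 to 0.61 in LynBKO and 0.24 to 0.57 in WT for Ebi3, 1.05 to 1.61 in LynKO and 1.09 to 1.56 in LynAKO for Il23a, and -1.14 to -0.57 in LynAKO for Il12b. Il12a, R848 over NT in LynKO, gave 4.63 to 5.33, and Il23a, LynKO over WT with R848, -1.74 to -1.22. Ebi3, LynKO over WT in NT, gave -0.42 to -0.21, and Il12b over LynKO gave 1.01 to 1.53 with LPS and 0.62 to 0.99 with R848 in LynAKO and 0.74 to 1.11 with R848 in LynBKO. Of 1450 values past the threshold in neither setting, 105 had the other sign. Depth limits Il12a and Il23a most, with at most 64 and 142 counts in a group.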

Other observations

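The labelled sex of the mice was examined after the values of Il12b had been seen. In every group with a ligand, replicates 1 and 2 were labelled male and replicates 3 and 4 female. Sex thus cannot be told apart from anything else that the replicate number marks. With LPS, Ebi3 was higher in the 2 male than in the 2 female libraries of each genotype: 78.3 to 78.6 and 65.9 to 72.9 CPM in LynKO, 89.0 to 111.8 and 81.7 to 82.9 CPM in LynAKO, 95.6 to 117.1 and 74.2 to 79.7 CPM in LynBKO, and 91.7 to 122.0 and 78.4 to 90.7 CPM in WT. Across genotypes the male-over-female log2 fold change of Ebi3 with LPS was 0.30 ± 0.07 (SE; unadjusted p = 0.000211, edgeR adjusted p = 0.0569), and with R848 it was -0.12 ± 0.09 (adjusted p = 0.567). Il12b gave 0.56 ± 0.15 with LPS (unadjusted p = 0.000933, adjusted p = 0.0922) and -0.25 ± 0.15 with R848 (adjusted p = 0.449). Its male libraries were above the female ones with LPS in LynAKO (65.5 to 73.1 and 19.6 to 38.4 CPM), LynBKO (43.0 to 47.0 and 27.6 to 35.0 CPM) and WT (60.1 to 76.4 and 51.4 to 53.9 CPM), and overlapped in LynKO. In WT with R848 the order was the other way, at 88.1 to 88.3 CPM in male and 154.0 to 166.7 CPM in female libraries. The difference between ligands by sex, LPS over R848 in male minus female, was 0.83 ± 0.23 for Il12b, 0.64 ± 0.19 for Il27 and 0.44 ± 0.12 for Ebi3, with adjusted p of 0.172, 0.183 and 0.17. Left without LynKO, Il12b (0.70, adjusted p = 0.0255) and Ebi3 (0.36, adjusted p = 0.0481) passed with LPS, and without each of the other genotypes in turn no subunit passed. None passed over all genotypes, where 0.329% of genes passed for sex with LPS, 0.293% with R848 and 0% for the difference.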
